A study of Mus musculus with 6 samples.

Results

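Polyamine synthesis and its control were read in an NIH3T3 mouse fibroblast line through 9 probe sets of an Affymetrix array, out of 12488 on the array. They are the probe sets that the platform annotation maps to Odc1, Srm, Sms, Amd1, Sat1, Oaz1, Oaz2 and Azin1. Of these 8 genes 7 have a probe set, and Amd1 has none and was dropped. Odc1, Srm, Sat1, Oaz2 and Azin1 are each read by 1 probe set of their own. The 2 probe sets for Oaz1 are annotated to its pseudogene Oaz1-ps as well, and the 2 for Sms also to Sms-ps, so their signals can come from either copy. The Srm probe set carries the suffix that Affymetrix gave to sets whose probes can match several related sequences.

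All cells carried c-myc and Ha-ras under a Tet-off promoter, which doxycycline keeps silent, and made an IRF-1hER fusion constitutively. The fusion joins the transcription factor IRF-1 to a hormone-binding part of the estrogen receptor and is switched on by estradiol. The doxycycline group received 2 µg/ml doxycycline, the withdrawal group no agent, and the estradiol group 1 mM estradiol (the labels' figure) for 48 h with no doxycycline. Each group has 2 arrays, 1 of RNA extracted with RNeasy (replicate 1) and 1 with TRIzol (replicate 2). Oncogene induction cannot be told apart from the loss of doxycycline itself, nor IRF-1 activation from other effects of estradiol. The cells were grown in DMEM with serum, and the labels name neither separate cultures nor whether the line is 1 clone. The line's name, 35/1-22, stands in the titles of the replicate 1 arrays only. The title of the doxycycline array of replicate 2 names estradiol too, while its treatment entry names doxycycline alone.

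Polyamines are small, positively charged molecules made from ornithine and S-adenosylmethionine, which bind nucleic acids and are needed for translation and growth. Ornithine decarboxylase (Odc1) starts the pathway by making putrescine, and spermidine synthase (Srm) and spermine synthase (Sms) add aminopropyl groups supplied by S-adenosylmethionine decarboxylase (Amd1). Antizymes (Oaz1, Oaz2) bind ornithine decarboxylase and deliver it to the proteasome, the antizyme inhibitor (Azin1) takes antizyme away from it, and spermidine/spermine N1-acetyltransferase (Sat1) opens the route of breakdown and export. Odc1 is a classical target of Myc in fibroblasts. Much of this control acts on protein, by frameshifting in antizyme translation and by the short life of the enzymes, which arrays of RNA do not read.

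In the RefSeq promoter table (GRCm38.p6; 250 bases before to 50 after a start), 6 of the 8 genes had an entry, with 7 windows of 300 bases. Srm and Azin1 had no entry, so their promoters were not searched. The 7 windows were searched on both strands for the E-box CACGTG that Myc and its partner Max bind and the GC box GGGCGG. The TATA box TATAAA and an interferon-type element of repeated GAAA were searched for as well. Overlapping matches were counted separately. The Odc1 window held 4 GC boxes and none of the other motifs. The stretch upstream of every annotated Odc1 start (chr12:17544623-17544807, plus strand) is shown because Odc1 is the entry enzyme, with its 3 GC boxes on either strand in capitals. The sole E-box among the 7 windows lay in the upstream Sms window, and 30 bases around it (chrX:157492466-157492495, minus strand) are shown with the E-box in capitals.
Odc1: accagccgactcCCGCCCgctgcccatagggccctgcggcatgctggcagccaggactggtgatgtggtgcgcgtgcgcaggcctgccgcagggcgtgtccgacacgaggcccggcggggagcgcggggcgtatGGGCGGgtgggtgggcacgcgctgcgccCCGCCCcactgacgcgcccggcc
Sms: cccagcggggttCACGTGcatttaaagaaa

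Among all 32851 promoter windows of that length, 35.7% held a GC box, 7.15% the E-box, 13.6% the TATA box and 3.44% the interferon-type element. Oaz2 had 4 GC boxes, the other Sms window 4, Sat1 2 and Amd1 1, while Oaz1 had a TATA box and no GC box. No member window held the interferon-type element. These are matches of letters in a short window. The E-boxes known in mouse Odc1 lie in its first intron, outside it.

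Similarity between arrays followed the group names in part. Over 7453 tested probe sets, 283 lay 2-fold or further apart between both doxycycline arrays and 250 between both estradiol arrays, against 485 to 1078 between a doxycycline and an estradiol array. Both withdrawal arrays, however, were separated by 920, whereas only 16 separated the withdrawal and estradiol arrays of replicate 1. The library labelled withdrawal replicate 2 was separated from doxycycline replicate 1 by 324 probe sets, from doxycycline replicate 2 by 582 and from estradiol replicate 2 by 649. Values for Srm, Odc1, Azin1 and Sat1 are therefore given without single arrays too. Fibroblast markers matched the label only in part. Of 10, 8 passed the filter on dim probe sets, among them Col1a2 at signals from 3806.5 to 9197.1, while Vim stayed between 5.9 and 40.7 and Lum between 3.3 and 25.3. The summed fibroblast marker signal ranged from 24907 to 26216.6 in the doxycycline group, from 19777.5 to 23286.6 in the withdrawal group and from 15021.2 to 19834.4 in the estradiol group. The 5 epithelial markers summed to 212.3 and 225.5 with doxycycline and to between 145.1 and 187.8 on the other 4 arrays. Of these 5, 2 passed the filter. Cdh1 was the brightest at 76.6 to 171.6, while Epcam read 0.7 to 8.1 and Krt14 3.9 to 6.3. Sums were 89.9 to 152.5 for 4 of 5 leukocyte markers with a probe set, 39.9 to 84.7 for 4 endothelial and 134 to 226.6 for 4 skeletal muscle markers. The filter was passed by 1 leukocyte, 0 endothelial and 2 skeletal muscle markers. These markers' part in the results was not tested, and in bulk RNA fewer cells of a type and less RNA per cell cannot be told apart.

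Srm and Odc1, an aminopropyl transfer enzyme and the entry enzyme, had the widest ranges over the 6 arrays among the tested members on the log2 scale, 2.36 and 1.36. By group, Srm was lowest with doxycycline, intermediate after withdrawal and highest with estradiol. Its withdrawal and estradiol arrays of replicate 1 were almost equal, however, at 663.1 and 664.8. Odc1 was lowest with doxycycline as well, and its withdrawal and estradiol signals overlapped. Azin1 had the same order at a smaller size, Sat1 was lowest with estradiol, and the brighter Sms probe set, Oaz1 and Oaz2 showed no common order. The dimmer Sms probe set was lowest with doxycycline. Yet 0 of the 8 tested member probe sets passed limma's test in any of the 3 comparisons, at an adjusted p under 0.05 over all tested probe sets. The background was 0% in each, with 0 of 7453 called.

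Srm had MAS5 signals, a linear measure of brightness, of 203.8 and 179.3 under doxycycline, of 663.1 and 253.3 once it was withdrawn, and of 664.8 and 1053.4 under estradiol, in replicates 1 and 2. The 3 groups did not overlap, but the withdrawal and estradiol arrays of replicate 1 were almost equal and the withdrawal array of replicate 2 lay much nearer to doxycycline than to its partner. On the scale of log2(signal + 32), which understates differences of dim probe sets, estradiol lay 1.96 above doxycycline (SE 0.44, 95% interval 0.96 to 2.97, unadjusted p = 0.00191, limma adjusted p = 0.255), or 3.90-fold. It was higher in both replicate numbers, by 1.56 and 2.36. This was the difference ranked 12 from the highest of 7453.

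Withdrawal lay above doxycycline for Srm by 1.56 in replicate 1 and 0.43 in replicate 2, a mean log2 difference of 1.00 (95% interval -0.01 to 2.00, limma adjusted p = 0.925). Leaving out withdrawal replicate 1 gave 0.35, and leaving out withdrawal replicate 2 gave 1.64. Estradiol lay above withdrawal by 0.0035 in replicate 1 and 1.93 in replicate 2, a mean of 0.97 (95% interval -0.04 to 1.97, limma adjusted p = 1.00). That mean depended on single arrays: without withdrawal replicate 2 it was 0.32, and without withdrawal replicate 1 it was 1.61. It was 0.65 without estradiol replicate 2. The mean difference between estradiol and doxycycline does not use the withdrawal arrays. It does use estradiol replicate 1, which only 16 probe sets separated from withdrawal replicate 1. This difference was 1.64 to 2.28 when each array of the estradiol and doxycycline groups was left out in turn. Without doxycycline replicate 2, whose title names estradiol too, it was 1.88. The withdrawal arrays do enter its SE, interval and p-value, since all groups share the estimate of spread.

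**Figure D1:**
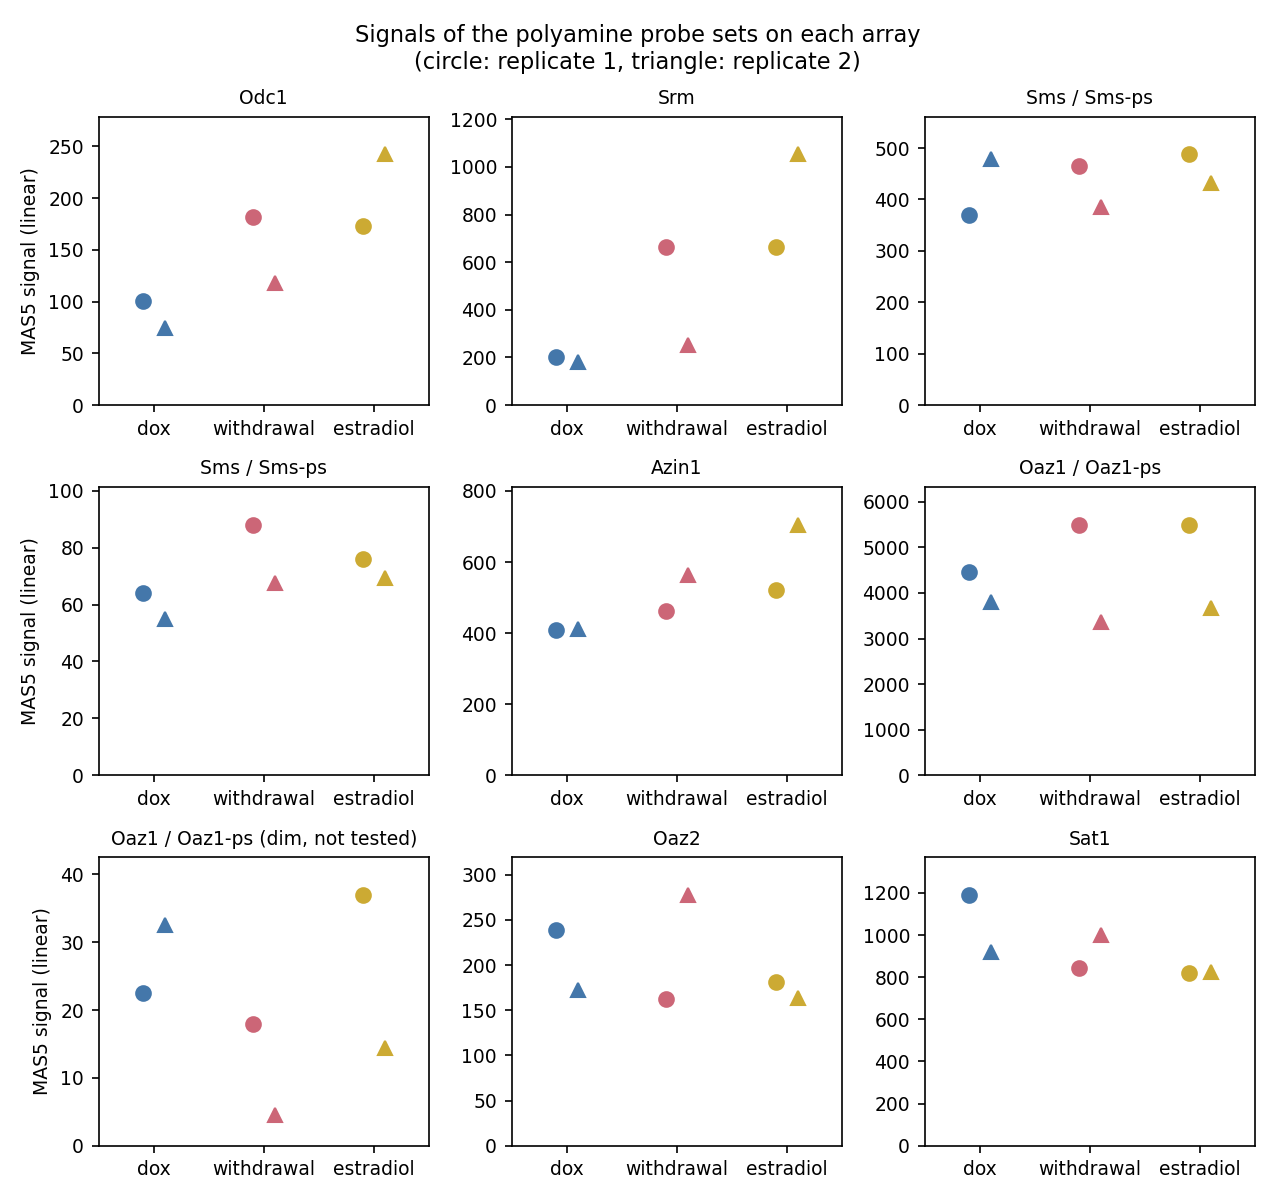
MAS5 signal (linear, from 0) of each of the 9 polyamine probe sets on the 6 arrays, by group, with circles for replicate 1 and triangles for replicate 2. Srm runs from 179.3 to 1053.4 and Odc1 from 74.6 to 242.4, both lowest with doxycycline, while the brighter Sms probe set stays between 370.6 and 488.

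Odc1 signals were 100.3 and 74.6 under doxycycline, 181.7 and 118.2 once it was withdrawn, and 173.2 and 242.4 under estradiol. Both doxycycline arrays lay below the other 4, and the withdrawal and estradiol arrays overlapped. The estradiol group lay 1.00 above doxycycline on the log2 scale (SE 0.30, 95% interval 0.31 to 1.68, unadjusted p = 0.00967, limma adjusted p = 0.257). Replicate 1 gave 0.63 and replicate 2 gave 1.36. The difference was 0.79 without estradiol replicate 2 and 0.84 without doxycycline replicate 2, the array with estradiol in its title.

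For withdrawal against doxycycline the Odc1 difference was 0.59 (95% interval -0.09 to 1.28, limma adjusted p = 0.925), with 0.69 and 0.49 in the 2 replicate numbers. Leaving out withdrawal replicate 1 gave 0.34, and leaving out withdrawal replicate 2 gave 0.85. Estradiol against withdrawal gave 0.41 (95% interval -0.28 to 1.09, limma adjusted p = 1.00), but the replicates stood at -0.06 and 0.87. Without withdrawal replicate 2 it was 0.15, and without estradiol replicate 2 it was 0.20.

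Sms, which makes spermine from spermidine, did not share the order of Srm. Its brighter probe set, shared with Sms-ps, read 370.6 and 478.3 in the doxycycline group, 465.1 and 386.1 in the withdrawal group and 488 and 432.6 in the estradiol group. All groups overlapped. Withdrawal differed from doxycycline by 0.0083 (95% interval -0.63 to 0.65) and estradiol by 0.12 (95% interval -0.52 to 0.76). The dimmer probe set, also shared, read 64 and 55 in the doxycycline group, 88.1 and 67.4 in the withdrawal group and 75.9 and 69.4 in the estradiol group. There both doxycycline arrays lay below the other 4, with differences of 0.26 (95% interval -0.30 to 0.82) and 0.19 (95% interval -0.37 to 0.76). The intervals of both probe sets still include increases of more than 0.6 on the log2 scale, and neither passed the test (limma adjusted p from 0.757 to 1.00 over the 3 comparisons).

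Azin1, whose protein resembles ornithine decarboxylase and holds antizyme away from it, read 408.9 and 411 under doxycycline, 461.9 and 564.8 once it was withdrawn, and 520.5 and 705.4 under estradiol. The doxycycline arrays were nearly equal and lay below all the others. The log2 difference from doxycycline was 0.53 with estradiol (SE 0.28, 95% interval -0.12 to 1.18, limma adjusted p = 0.432), with 0.33 and 0.74 in the replicates. After withdrawal it was 0.30 (limma adjusted p = 0.936), with 0.16 and 0.43. The estradiol difference was 0.32 without estradiol replicate 2, and the withdrawal difference was 0.16 without withdrawal replicate 2. Unlike Srm and Odc1, Azin1 was higher on withdrawal replicate 2 than on withdrawal replicate 1.

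The antizyme Oaz1 was read brightly by 1 probe set shared with Oaz1-ps. Signals were 4464.6 and 3804.7 in the doxycycline group, 5498.5 and 3361.9 in the withdrawal group and 5483 and 3670.7 in the estradiol group. All 3 replicate 1 arrays lay above all 3 replicate 2 arrays, so these values divided by replicate number and extraction method rather than by group. The difference from doxycycline was 0.06 after withdrawal (95% interval -0.73 to 0.85) and 0.12 with estradiol (95% interval -0.67 to 0.91). The other Oaz1 probe set had signals of 4.5 to 37, did not pass the filter and was not tested.

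Oaz2, a second antizyme, read 238.4 and 172.6 under doxycycline, 162 and 277.8 once it was withdrawn, and 180.8 and 163.3 under estradiol. The withdrawal arrays held both the lowest and the highest value of the 6. Withdrawal against doxycycline thus gave -0.48 in replicate 1 and 0.60 in replicate 2, and estradiol against doxycycline -0.21 (95% interval -0.92 to 0.51). The latter was -0.0052 without doxycycline replicate 1 and -0.41 without doxycycline replicate 2.

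Sat1, the acetyltransferase of polyamine breakdown, read 1191 and 921.6 under doxycycline, 845.2 and 1000.8 once it was withdrawn, and 817.5 and 824 under estradiol. The estradiol arrays were the lowest of the 6 and close to each other, and the doxycycline and withdrawal arrays overlapped. Estradiol lay below doxycycline by -0.34 on the log2 scale (95% interval -0.99 to 0.30, limma adjusted p = 0.621), with -0.53 and -0.16 in the replicates. Without doxycycline replicate 1 this was -0.16. Against withdrawal it was -0.16 (95% interval -0.80 to 0.49, limma adjusted p = 1.00), and -0.04 without withdrawal replicate 2.

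**Figure D2:**
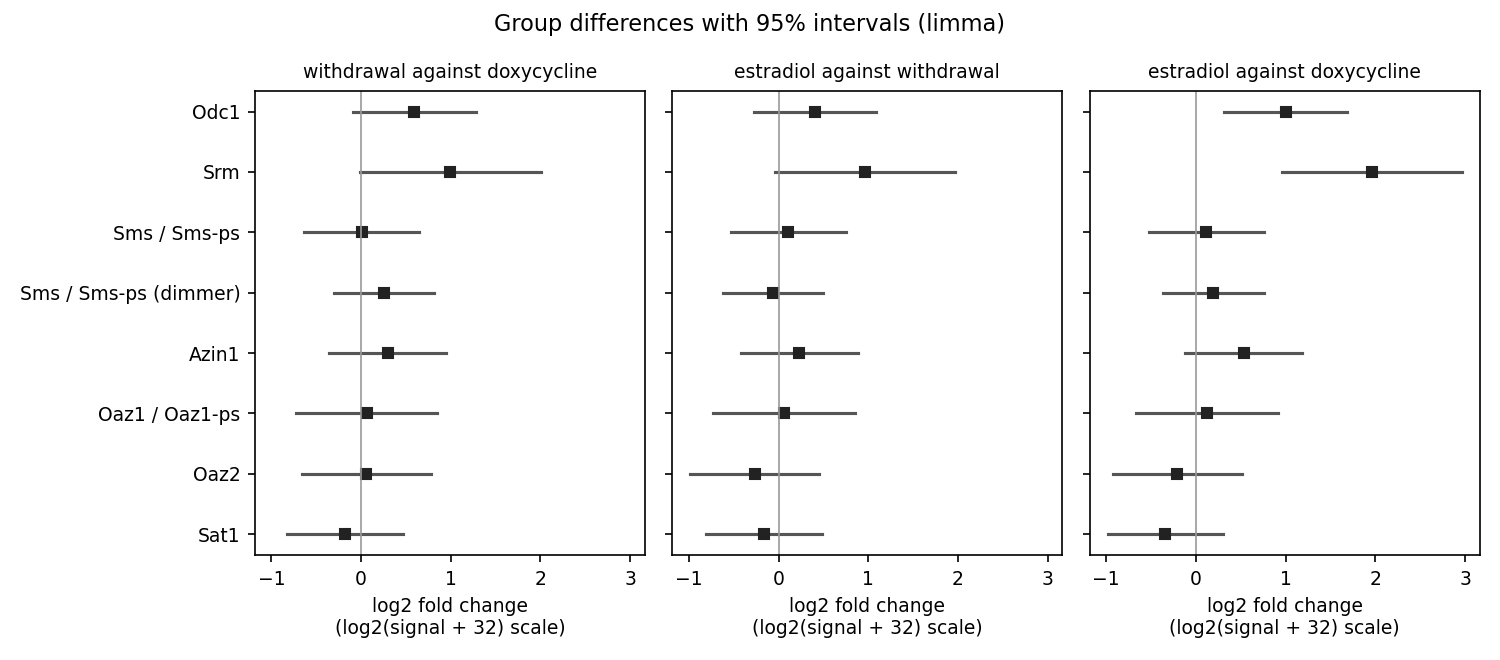
Log2 fold change (squares, on the log2(signal + 32) scale) with its 95% interval (lines) from limma for the 8 tested polyamine probe sets in each comparison. Only the intervals of Srm (0.96 to 2.97) and Odc1 (0.31 to 1.68) for estradiol against doxycycline lie wholly above 0, before adjustment over all probe sets.

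Counted together, 4 of the 8 tested member probe sets (Odc1, Srm, Azin1 and the dimmer Sms) had both withdrawal arrays above both doxycycline arrays, where the background over all tested probe sets was 16.8%, and 0 had both below (15.0%). The same 4 had both estradiol arrays above both doxycycline arrays, against a background of 27.0%, and 1 (Sat1) had both below (24.7%). These comparisons share the doxycycline arrays. The members were chosen with earlier results of these data known, so a share above the background is not an independent result. Between estradiol and withdrawal, Srm alone was higher without overlap (11.5%) and Sat1 alone lower (10.2%). At an unadjusted p under 0.05, limma counted 0 of 8 for withdrawal against doxycycline (background 4.37%), 0 for estradiol against withdrawal (0.698%) and 2, Srm and Odc1, for estradiol against doxycycline (14.0%). In a list of 8, a share of 14.0% corresponds to about 1 probe set. The median log2 difference over the 7 genes, by their brightest probe set, was 0.06 for withdrawal against doxycycline, 0.11 for estradiol against withdrawal and 0.12 for estradiol against doxycycline. With each array left out in turn these medians ran from 0.16 to 0.34, from 0.027 to 0.23 and from 0.036 to 0.32, so the first lay outside its own range. Over all 7453 probe sets the medians were 0.014, 0.0064 and 0.0035. Over the 5 genes with a probe set of their own, the members' medians were 0.30, 0.23 and 0.53.

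**Figure D3:**
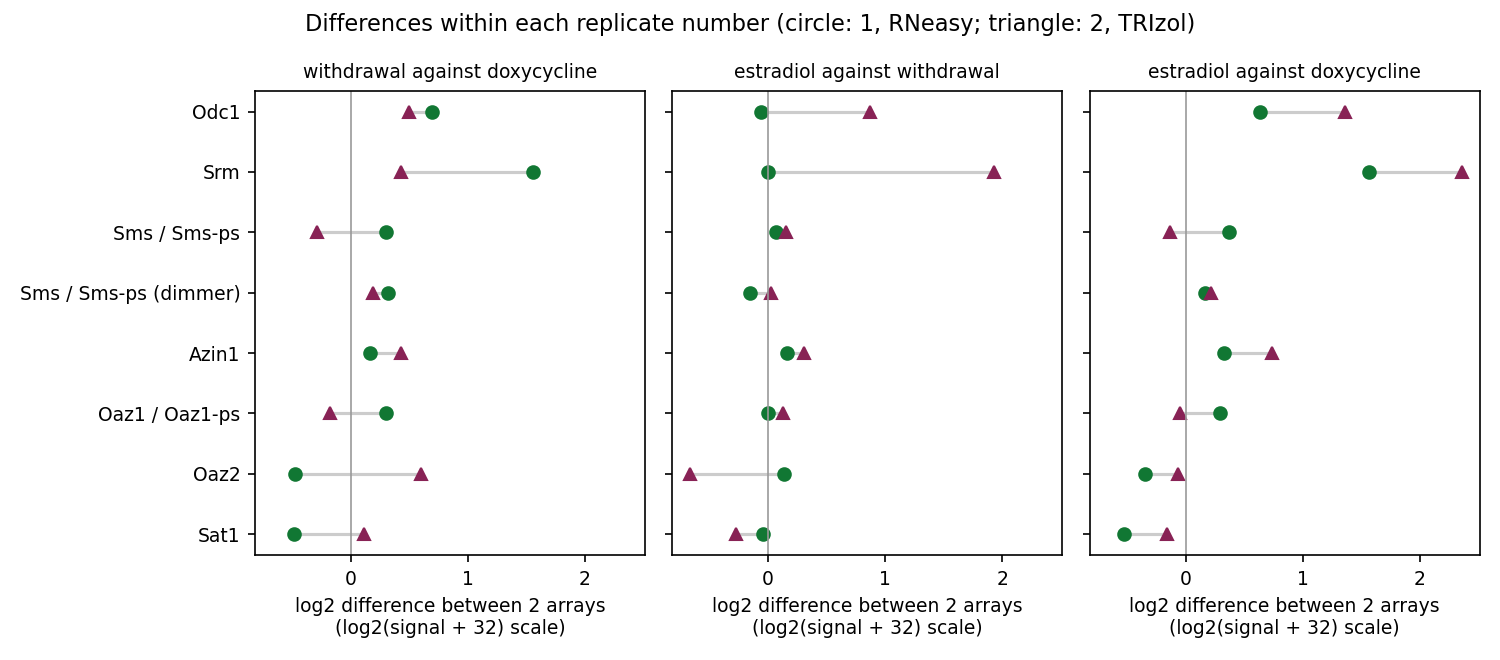
Log2 difference between 2 arrays of the same replicate number (circles, replicate 1, RNeasy; triangles, replicate 2, TRIzol) for the 8 tested polyamine probe sets in each comparison. For estradiol against withdrawal, the circles of Srm and Odc1 lie at 0.0035 and -0.06 and their triangles at 1.93 and 0.87.

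Genes of cell division, by their median, stood above and below their mean on the same arrays as Srm and Odc1. The order of the arrays differed. The cell division median was lower on withdrawal replicate 2 than on doxycycline replicate 1, while Srm and Odc1 were higher there. The median of 19 tested cell division genes (of 22 listed), relative to each gene's mean over the arrays, was -0.36 and -1.22 in the doxycycline group, 0.59 and -0.55 in the withdrawal group and 0.66 and 0.92 in the estradiol group. Srm stood at -0.91 and -1.07, 0.65 and -0.63, and 0.66 and 1.30 on the same arrays. Odc1 stood at -0.37 and -0.69, 0.32 and -0.19, and 0.26 and 0.68. All 3 were below their mean on the array labelled withdrawal replicate 2, and Azin1 was above its own there, at 0.16. The part of cell division in the Srm and Odc1 values was not tested.

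**Figure D4:**
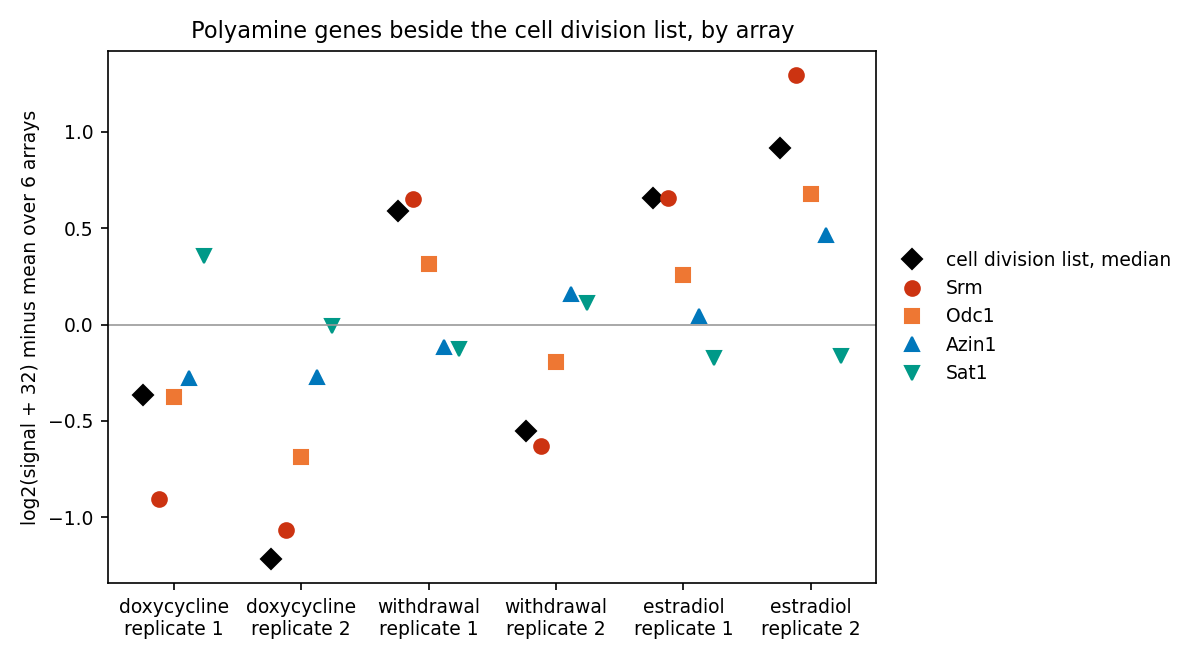
Log2(signal + 32) minus the mean over the 6 arrays for Srm, Odc1, Azin1 and Sat1 and for the median of 19 cell division genes, on each array. On withdrawal replicate 2 the cell division median (-0.55), Srm (-0.63) and Odc1 (-0.19) lie below 0, and Azin1 (0.16) and Sat1 (0.11) lie above it.

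The genes most like Srm were found by the root mean square difference of log2 signals, each centred on its mean over the 6 arrays, among 6738 other named probe sets. They were Nhp2, a protein of small nucleolar ribonucleoproteins (0.13), Timm8a1, a mitochondrial import chaperone (0.13), the ATPase Ruvbl2 (0.16), the replication clamp Pcna (0.17) and the replication licensing factor Cdt1 (0.17). For Srm's neighbour Nhp2 the signals were 459.6 and 326 under doxycycline, 1081.1 and 538.2 once it was withdrawn, and 1306.2 and 2064.1 under estradiol. The nearest to Odc1 were the polyadenylation factor Cstf2 (0.06), the ribosomal RNA transcription factor Ubtf (0.06) and Grk6 (0.06), a kinase of G protein-coupled receptors. They were followed by the immunophilin Fkbp1a (0.06) and Wdr77 of the arginine methylation complex (0.07). Ubtf read 415.1 and 305.9 under doxycycline, 629.5 and 474.3 once it was withdrawn, and 611 and 805.8 under estradiol. Odc1 itself ranked 199 in likeness to Srm, at 0.46, and Azin1 ranked 839 in likeness to Odc1, at 0.31. All distances share the same 6 arrays and describe them only.

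The 36 other genes listed around the members were mostly of polyamine, methionine and hypusine metabolism and transport. The list also held Nos2, Gatm and the proteasome subunit Psmd4. Of these 36 genes, 22 had a probe set of their own. Of their probe sets 17, for 13 genes, were tested, and limma called 0 in each comparison. At an unadjusted p under 0.05 there were 3 of 17 for withdrawal against doxycycline, all lower (background 4.37%), 0 for estradiol against withdrawal (0.698%), and 6 for estradiol against doxycycline, 4 higher and 2 lower (14.0%). These counts include Dhps, which passed the filter on dim probe sets only through its doxycycline arrays. This list, too, was chosen with earlier results of these data known. The medians over the 13 genes were -0.12, -0.0047 and -0.11.

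Ahcy, which clears S-adenosylhomocysteine, gave 2 of the 4 higher counts with estradiol. Its brightest probe set read 407.5 and 248.7 under doxycycline, 831.8 and 319.8 once it was withdrawn, and 816.6 and 1410.2 under estradiol, so that estradiol lay 1.66 above doxycycline (SE 0.48, limma adjusted p = 0.257). A second probe set gave 1.73 and the dimmest 0.25. As for Srm, the withdrawal array of replicate 2 lay near the doxycycline arrays. Dohh, which completes the hypusine residue made from spermidine on the translation factor eIF5A, had 181 and 212.7, then 367.3 and 221.4, then 352.4 and 438.5 in the same order. Its estradiol arrays lay 0.90 above doxycycline (SE 0.31, limma adjusted p = 0.290). Enoph1, of methionine salvage, gave the remaining higher count at 0.85 (limma adjusted p = 0.286). It is named after its values were seen.

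Dhps, the enzyme that uses spermidine in the first step of hypusine synthesis, was dim, at 64 and 68.5 under doxycycline, 6.8 and 38.1 once it was withdrawn, and 7.1 and 35.4 under estradiol. Since the doxycycline arrays alone carried it past the filter, it had to differ, and its values are a description. Dhps too is named after its values were seen. The other low counts came from the dimmer probe sets of Atp13a3, a polyamine transporter, at -0.84 after withdrawal and -1.12 with estradiol (limma adjusted p = 0.925 and 0.255), and of Mat2b, a subunit of S-adenosylmethionine synthesis, at -0.71 after withdrawal (limma adjusted p = 0.925). The brighter probe sets gave 0.21 and 0.15 for Atp13a3 and -0.20 for Mat2b (-0.0004 without withdrawal replicate 1 and -0.40 without withdrawal replicate 2), so for Atp13a3 the 2 probe sets disagreed in sign. Slc3a2, the heavy chain of amino acid transporters, and Psmd4, a proteasome subunit, differed from doxycycline by -0.12 and -0.31 after withdrawal and by -0.20 and -0.11 with estradiol.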

How the data were processed

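RNA of 6 samples was measured on 1 Affymetrix array each. The deposited intensities are MAS5 signals on a linear scale, per the submitters' processing notes. Version and settings are not stated in the labels. Their means after trimming 2% at each end were 150.09 to 150.1 on every array. Here signals were scaled to a common trimmed mean and turned into log2(signal + 32). After removal of 66 controls and the dimmest 40% by mean log2 signal, 7453 probe sets entered limma 3.58.1 (R 4.3.3). The fit had 3 group means over all 6 arrays, 3 residual degrees of freedom and a trended prior. P-values were two-sided with Benjamini-Hochberg adjustment over all tested probe sets, at a threshold of 0.05. The fit was tested on simulated data with independent noise of equal size for all probe sets. They held no replicate effect and no discordant array, so that test does not cover such arrays. The number of arrays limits the precision, and p-values here reflect array-to-array spread, possibly technical, since separate cultures are not named. With no term for replicate number in the fit, that spread includes any difference between the RNeasy and TRIzol arrays of each group.

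Names came from the platform annotation. Of the probe sets other than controls, 10833 had 1 symbol, 396 several and 1193 none. Those with several are reported only as shared probe sets. All members are named, with the 6 other pathway genes of brightest signal and the 5 genes nearest in pattern to Odc1 and to Srm. Enoph1, Dhps and second probe sets were added after their values were seen. The members and lists were chosen with earlier results of these data known. The labels tie replicate number to extraction method, which pairs the arrays. Deviations from group means correlated at -0.00727 (doxycycline and withdrawal), -0.0284 (doxycycline and estradiol) and 0.449 (withdrawal and estradiol). Alternatives were the pseudocount, filter, scaling, trend, replicate block and leaving out each array, where a lone array is assumed to vary like the other groups.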

Additional observations from a re-analysis of the deposited data

How the results depend on the processing

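No polyamine probe set passed limma's test under any alternative, the count being 0 throughout, also when each array was left out in turn (0 to 0). Over all probe sets limma called 0 to 26 for withdrawal against doxycycline, 0 to 17 for estradiol against withdrawal and 0 to 28 for estradiol against doxycycline when 1 array was left out. The highest counts came without doxycycline replicate 1, withdrawal replicate 1 and doxycycline replicate 1, in that order. With the replicate number as a block, limma again called 0 in each comparison, and the block changed no call among the members (Srm, estradiol against doxycycline, adjusted p = 0.201). Of 336 single values of the members and 6 pathway genes, recomputed with all arrays kept, 335 kept their direction and stayed short of the threshold. The exception was the brighter Sms probe set for withdrawal against doxycycline, at -0.0145 after quantile normalization against 0.0083. Leaving out 1 array turned the sign of 25 of 168 such values. For the brighter Sms the values ran from -0.16 to 0.18 for withdrawal against doxycycline, -0.0162 to 0.23 for estradiol against withdrawal and -0.0541 to 0.29 for estradiol against doxycycline, and in the same order from -0.29 to 0.41, -0.29 to 0.41 and -0.17 to 0.41 for Oaz1, -1.06 to 0.44, -0.55 to 0.95 and -0.65 to 0.43 for Psmd4, and -0.50 to 0.25, -0.31 to 0.17 and -0.57 to 0.17 for Slc3a2. In the first and second comparisons they ran from -0.28 to 0.40 and -0.60 to 0.0716 for Oaz2 and from -0.0242 to 0.45 and -0.30 to 0.17 for the brighter Atp13a3, and in the second from -0.20 to 0.0736 for the dimmer Sms. The ends of every range for estradiol against withdrawal here came from leaving out a withdrawal array. For Srm, Odc1, Azin1 and Sat1 no sign turned. The members' median for withdrawal against doxycycline was 0.16 with every probe set counted once. The medians over genes with their own probe set were added after the annotation was seen.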
